A study of Mus musculus with 10 samples.

Results

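Whole hearts of mice with a knockdown (KD) of the vesicular acetylcholine transporter, VAChT, were compared with whole hearts of wild-type (WT) mice. The comparison holds 4 of the 10 arrays of the study, the 2 titled as KD hearts and the 2 titled as wild-type hearts, and is described over 19938 genes. The other 6 arrays hold isolated ventricular cardiomyocytes of the same genotypes and are used here only to set the heart differences beside those of the muscle cells. All mice were male, of the C57BL/6 strain and 3 months old, and neither genotype had been treated. The series title calls the line VAChT KDHOM; the allele itself is not given in the sources used here. Each array received a pool of 2 RNA samples, and the labels do not say whether different arrays are different animals. The spread between arrays that the p-values rest on may therefore be technical.

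VAChT is encoded by Slc18a3 and loads acetylcholine into synaptic vesicles, so that cholinergic nerve endings can release it. In the heart, acetylcholine from parasympathetic nerves acts mainly on muscarinic receptors, slows the sinoatrial pacemaker and opposes the adrenergic drive of the sympathetic nerves. The heart muscle that both branches act on lives largely on the oxidation of fatty acids in its mitochondria, and also burns glucose, lactate, ketone bodies and branched-chain amino acids. In the study, the hearts address which transcripts differ in the whole organ when acetylcholine loading is reduced.

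Values are log2 intensities, so a difference of 1 is a doubling, and values of different genes are not set against each other. Differences are KD minus WT means of 2 arrays each, with the standard error (SE) from a linear model over all 10 arrays in limma. That SE pools the spread of hearts and cardiomyocytes. It can therefore understate the heart spread of genes that vary little in cardiomyocytes, such as some of blood and airways, and so can their intervals and p-values. "Both KD arrays below" means that each KD array lay under each WT array. A median of a gene list is the median of its members' differences. Most genes named from a list were those of smallest p within it. Genes named for a like difference in both KD arrays were taken only where the genotypes did not overlap. A lack of overlap in a named gene was therefore favoured by the choice.

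The 4 heart arrays were alike in scale, with medians over named genes of 7.54 to 7.59. Across genes, the WT arrays correlated at 0.993 and the KD arrays at 0.980. The 8 marker genes of heart muscle all lay among the brightest 10% of genes, and their summed level came to 16.64 and 16.58 in WT hearts against 16.49 and 16.55 in KD hearts, on the log2 scale. KD replicate 1 stood apart: 191 genes lay more than 1 log2 unit above the mean of the other 3 arrays in it and 3 lay as far below. In KD replicate 2, 9 genes lay above and 41 below by that measure. The counts were 8 and 31 in WT replicate 1 and 7 and 13 in WT replicate 2. Genes high in KD replicate 1 raise the mean that the other 3 arrays are set against, and so can count as low in them. Rag1 was such a gene, at -1.83 and -1.71 in WT replicates 1 and 2 and -1.54 in KD replicate 2.

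The genes that set KD replicate 1 apart were those of the thymus, an organ that lies against the base of the heart. Rag1, which starts the rearrangement of antigen receptor genes in immature lymphocytes, was at 6.51, 6.60 and 6.73 in WT replicates 1 and 2 and KD replicate 2, and at 11.68 in KD replicate 1. Themis, a signalling protein of developing T cells, was at 6.47 and 6.62 in WT, 6.78 in KD replicate 2 and 11.20 in KD replicate 1. The same array was high in genes of the thymic epithelium: Ccl25, the chemokine that draws T cell precursors in, was at 10.72 against 7.07, 6.96 and 7.11. Prss16, the thymus-specific serine protease, was at 10.41 there and at 6.75, 6.78 and 6.84 in the other arrays. Dntt, the terminal transferase of those cells, was at 9.64 in KD replicate 1 against 5.58, 5.86 and 6.19, and Krt5, a keratin of thymic and other epithelia, at 8.63 against 6.98, 6.77 and 7.12. Of 9 thymocyte markers measured, 9 were above the WT mean in KD replicate 1, with a median of 3.14, and the summed level of the list was 13.20 in it against 9.65 to 9.88 in the other 3 arrays. In KD replicate 2 the median was 0.18. Medians of the 9 T cell markers were 1.63 and 0.00 in KD replicates 1 and 2, and those of the 8 thymic epithelium markers 0.61 and 0.10. Each KD array is therefore also shown by itself for the lists and genes that the results turn on.

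KD replicate 2 had low values in genes of atrial muscle. These were not the only genes low in it: Ms4a1, a B cell marker, was at 5.79 against 7.25 and 7.27 in WT and 7.39 in KD replicate 1. Nppa, which encodes atrial natriuretic peptide, was at 13.24 and 13.04 in WT, 13.002 in KD replicate 1 and 11.69 in KD replicate 2. Bmp10, a growth factor made by the atria, was at 9.57 and 9.52 in WT and at 9.21 and 8.05 in KD. Myl7, the atrial regulatory myosin light chain, was at 11.15 and 10.87 in WT and at 10.77 and 9.53 in KD. In each case KD replicate 1 lay just below both WT arrays and KD replicate 2 far below them. Of the 8 atrial genes, 7 had both KD arrays below both WT arrays, where 15.4% of all genes did, the exception being Tbx5, a transcription factor of the atria and the left ventricle. The list median was -0.28 in KD replicate 1 and -1.14 in KD replicate 2. Nppa had a mean difference of -0.79 (SE 0.43) and Bmp10 of -0.91 (SE 0.28), with limma adjusted p of 1 and 0.95. Sln, which inhibits the calcium pump of atrial muscle, Myl4, the atrial essential light chain, Pam, which amidates peptides, and Dkk3 had differences of -0.66, -0.72, -0.44 and -0.43. Whether the share of atrium in the samples differed was not tested, and in such bulk samples fewer cells of a type and less RNA per cell cannot be told apart.

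**Figure D1:**
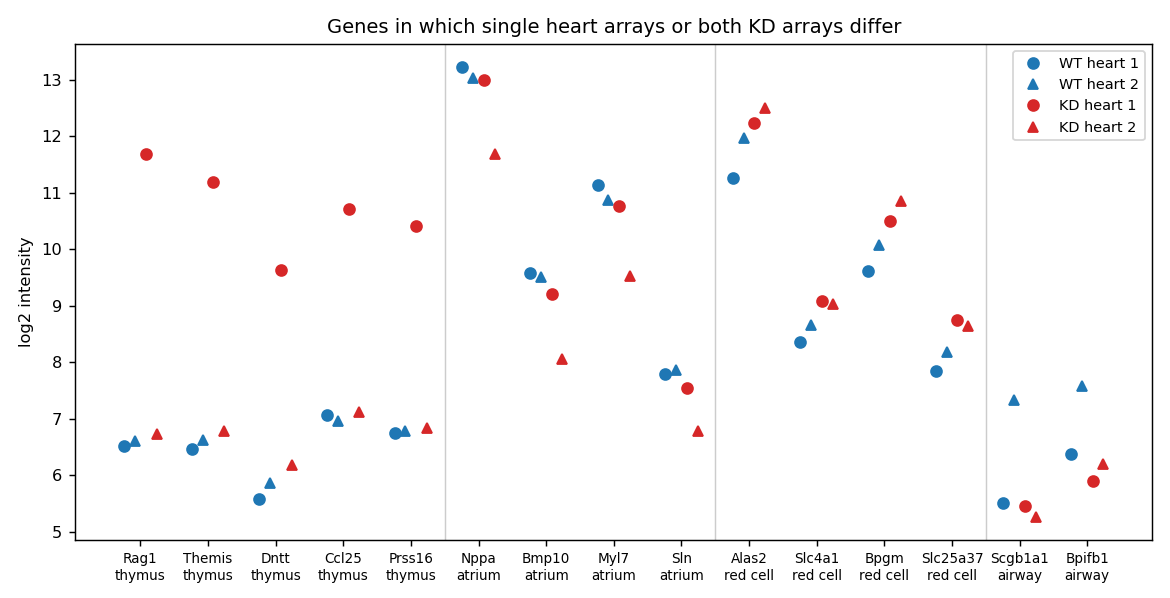
Log2 intensity (vertical axis) of 15 genes of the thymus, atrium, red cells and airway in each of the 4 heart arrays (blue, WT; red, KD; circles, replicate 1; triangles, replicate 2). Thymus genes are high in KD replicate 1 alone, atrial genes are lowest in KD replicate 2, the red cell genes are higher in both KD arrays than in both WT arrays, and the airway genes are high in WT replicate 2.

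WT replicate 2 was high in a pair of airway genes. Scgb1a1, the club cell secretory protein of airways, was at 7.34 in it and at 5.51, 5.46 and 5.26 in the other arrays, and Bpifb1, another airway secretory protein, was at 7.58 against 6.38, 5.91 and 6.19. The other 8 lung epithelium markers did not follow: the summed level of the list was 10.32 in WT replicate 2 and 10.29 in KD replicate 2, and 7 of 9 had a KD mean above WT. The airway genes gave the most negative difference of all genes, -1.06 (SE 0.38) for Scgb1a1, and one of -0.93 (SE 0.27) for Bpifb1, which without WT replicate 2 were -0.15 and -0.33. A different split ran along the replicate numbers. Fasn, the fatty acid synthase, was at 10.62 and 10.21 in the replicates 1 and at 8.98 and 8.93 in the replicates 2 of WT and KD. Acaca, which makes the malonyl-CoA that Fasn consumes, was at 8.97 and 8.46 against 7.79 and 7.64, and Acly, which supplies cytosolic acetyl-CoA, at 9.54 and 9.36 against 8.41 and 8.10. For these 3 lipogenic enzymes the arrays of a genotype differed by more than the genotype means, whose differences were -0.23 (SE 0.43), -0.33 (SE 0.31) and -0.25 (SE 0.36).

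The targeted gene did not separate the genotypes. Slc18a3 was at 7.34 and 7.72 in the WT and at 7.32 and 7.84 in the KD hearts, a difference of 0.05 (SE 0.19, limma adjusted p = 1), and the ranges of the genotypes overlapped. Chat, which makes acetylcholine and shares its locus with Slc18a3, was at 5.83 and 6.16 in WT and 5.78 and 6.27 in KD, a difference of 0.03 (SE 0.16) whose sign turned with the scaling and, as for Slc18a3, with single arrays left out. Replicate 2 lay above replicate 1 in each genotype for both genes, and how the Slc18a3 probe set lies to the altered allele is not given in the sources used here, so these values do not check the labels. The cell bodies of most cholinergic neurons are outside heart muscle, in brainstem nuclei and in ganglia at the base of the heart.

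Of the 29 genes of acetylcholine synthesis, transport, breakdown and reception, 10 were lower and 19 higher in KD, with a median of 0.05 beside 0.01 over all genes, which was -0.08 when dim genes were left out and -0.05 without KD replicate 2. Both KD arrays were below both WT arrays for 3 and above for 5, where 15.4% and 14.2% of all genes were. Chrm2, the muscarinic receptor that carries most of the vagal signal in heart muscle, was at 11.48 and 11.47 in WT and 11.13 and 11.27 in KD (-0.27, SE 0.13). On the side of breakdown, Colq, the collagen tail that anchors acetylcholinesterase, was at 8.09 and 7.89 in WT and 8.58 and 8.23 in KD (0.41, SE 0.15), and Ache, the esterase itself, was at 6.76 and 7.03 in WT and 7.02 and 7.26 in KD (0.25, SE 0.14). Bche, the second cholinesterase, lay the other way at 8.42 and 8.26 in WT and 7.94 and 8.23 in KD (-0.25, SE 0.20). Chrna9, a nicotinic receptor subunit, was at 6.82 and 6.81 in WT and 7.24 and 6.96 in KD (0.29, SE 0.13). Among these 5 genes the genotypes overlapped for Ache alone, but Chrm2, Colq, Ache and Chrna9 were named for a small p within the list. Chrm2 belongs to the brightest bin of genes, and its difference was -0.16 with a trend on intensity removed. That of Colq was 0.59 in KD replicate 1, the array with thymus transcripts, and 0.24 in KD replicate 2. The limma adjusted p was 0.95 for Colq and 1 for Chrm2.

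Over all 19938 genes, 0 passed an adjusted p of 0.05 in limma, and the smallest adjusted p was 0.713. Without adjustment, 982 genes (4.93%) had a p under 0.05, where 997 would be expected by chance; 486 were higher (2.44%) and 496 lower (2.49%) in KD. The median 95% interval of a gene, without adjustment, reached 0.31 log2 units (1.24-fold) to each side. Larger differences also missed the adjusted threshold, such as that of Mylk4, 1.64-fold lower in KD at a limma adjusted p of 0.713. Both KD arrays lay on the same side of the WT mean in 51.7% of genes. The count rested on KD replicate 2: with it left out and the lone KD array assumed to vary like the other groups, 303 genes passed, 295 of them higher in KD replicate 1. Without WT replicate 1, 2 genes passed (Bpifb1 and Scgb1a1, both lower), without KD replicate 1, 1 gene passed (Ms4a1, a B cell marker, lower), and without WT replicate 2, 0 passed. With 2 arrays per genotype, the smallest two-sided p of an exact permutation test is 0.333.

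**Figure D2:**
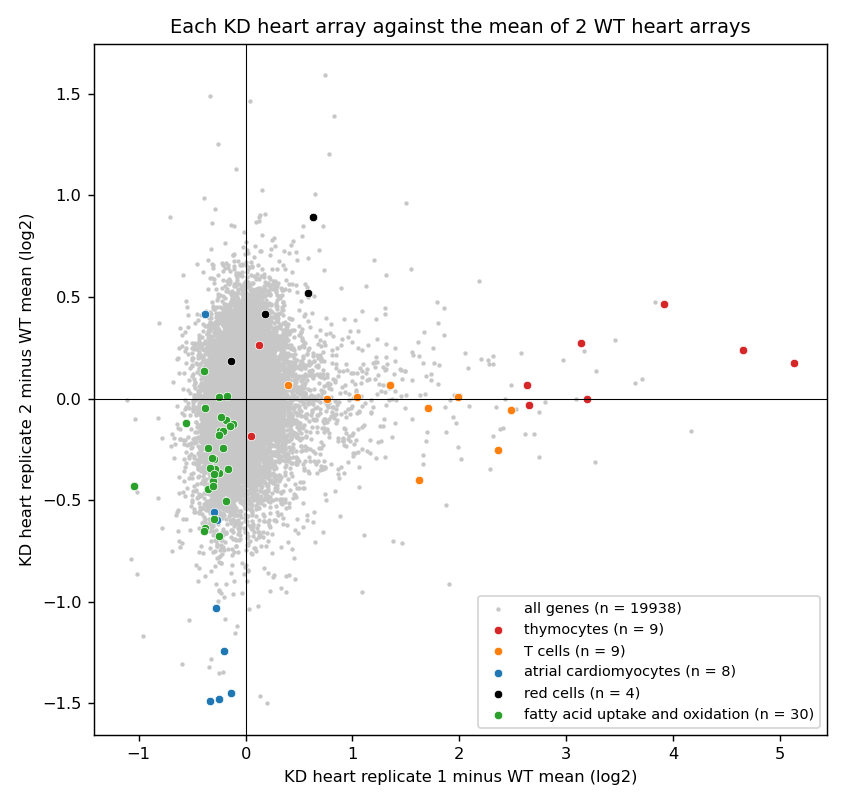
Difference of each KD heart array from the mean of the 2 WT heart arrays (log2; horizontal, KD replicate 1; vertical, KD replicate 2), a point for each of 19938 genes with 5 gene lists coloured. Thymocyte and T cell genes stretch to the right, atrial genes downwards, and fatty acid oxidation genes lie to the lower left, below 0 in both arrays for most members.

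A second pattern ran over all genes. Genes were ordered by mean heart intensity into 10 equal bins. In the brightest bin the median difference was -0.12 in KD replicate 1 and -0.09 in KD replicate 2, and both KD arrays were below both WT arrays for 33.3% of these genes and above for 3.51%. In the dimmest bin those shares were 9.88% and 17.3%. A KD mean below WT was found for 73.2% of the genes of the brightest bin, 39.1% of those of the dimmest and 47.4% of all genes. Where a count of lower genes is given below, these are the shares to set it against. Genes of the contracting and respiring heart are mostly bright, so the medians of the main lists are also given after a smooth trend of the difference on intensity was removed from the KD arrays.

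**Figure D3:**
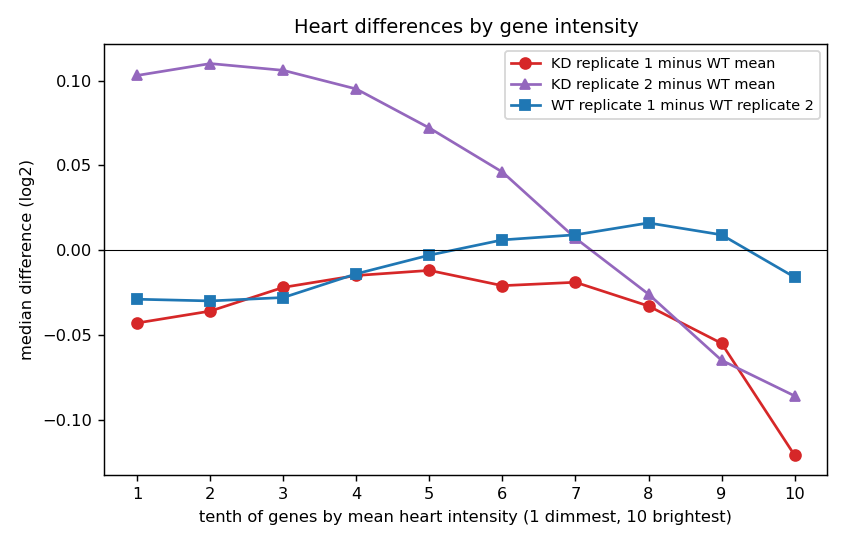
Median log2 difference (vertical axis) in 10 equal bins of genes ordered by mean heart intensity (horizontal axis, 1 dimmest to 10 brightest) for each KD array against the WT mean and for WT replicate 1 minus WT replicate 2. Both KD lines lie below 0 in the 3 brightest bins, reaching -0.12 and -0.09 (KD replicate 1 lies below 0 throughout, KD replicate 2 above 0 in the dimmer bins), while the line of the WT arrays stays between -0.03 and 0.02.

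The genes of fatty acid oxidation were lower in the KD hearts as a group, and to a like extent in both arrays. All 30 measured members had a mean difference below 0, against 47.4% of all genes and 73.2% of the brightest bin. The differences ran from -0.74 to -0.08 with a median of -0.30. For 23 of them the KD arrays lay entirely below the WT arrays (76.7%; 15.4% of all genes and 33.3% of the brightest bin of genes, to which 25 of the 30 belonged), and 15 had an unadjusted p under 0.05 in the lower direction, which 2.49% of all genes had. The median was -0.29 in KD replicate 1, which carries thymus transcripts, and -0.30 in KD replicate 2, in which they were near WT levels. With the intensity trend removed it was -0.18, 29 members were still lower and 15 had both KD arrays below both WT arrays. Without WT replicate 1 the median was -0.22. No member passed the adjusted threshold, and the part of the intensity pattern in these values was not tested beyond that removal.

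Along the pathway, Cd36, the fatty acid transporter of the plasma membrane, was at 13.41 and 13.29 in WT hearts and 13.11 and 12.99 in KD hearts (-0.31, SE 0.11). Echs1, the enoyl-CoA hydratase of short chains, was at 10.98 and 10.71 in WT and 10.51 and 10.50 in KD (-0.34, SE 0.12). Hadhb, the thiolase subunit of the trifunctional protein, was at 13.34 and 13.10 in WT and 12.92 and 12.62 in KD (-0.45, SE 0.13). In each of these steps the highest KD array lay under the lowest WT array. Cd36, Echs1 and Hadhb were named for a small p within the list, which favours genes that keep the genotypes apart. Acat1, the mitochondrial acetoacetyl-CoA thiolase, was at 11.94 and 11.81 in WT and 11.48 and 11.22 in KD, a difference of -0.52 (SE 0.12; 95% interval -0.78 to -0.26; limma adjusted p = 0.871). Pdk4, the kinase that holds pyruvate dehydrogenase inactive and is induced when fat is burned, was at 11.08 and 11.87 in WT and 10.43 and 11.05 in KD (-0.74, SE 0.30), with no overlap but a gap between the WT arrays about as wide as the difference itself. The KD means were thus lower from uptake to the last thiolase.

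The electron transfer flavoprotein, which hands the electrons of acyl-CoA dehydrogenases to the respiratory chain, appeared in the list and among the genes ranked without regard to lists. Its alpha subunit Etfa was at 12.35 and 11.86 in WT and 11.73 and 11.47 in KD (-0.51, SE 0.16), and Etfdh, the dehydrogenase that receives its electrons, was at 13.22 and 12.91 in WT and 12.81 and 12.38 in KD (-0.46, SE 0.15). Etfrf1, a regulatory factor of the flavoprotein, was at 9.04 and 8.84 in WT and 8.16 and 8.31 in KD, 1.63-fold lower (-0.71, SE 0.15; limma adjusted p = 0.713). Etfbkmt, the methyltransferase of its beta subunit, was at 8.87 and 9.003 in WT and 8.30 and 8.28 in KD (-0.64, SE 0.22). The arrays of the genotypes did not overlap for any of these 4 genes, but the choice of genes favoured this. Etfa and Etfdh were named for a small p within their list. Etfrf1 and Etfbkmt were on no list. They were taken by size from 341 genes, 1.71% of all, that were lower in KD at an unadjusted p under 0.05. Only genes with both KD arrays below both WT arrays, and to a like extent, were among the 341.

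Acadm encodes medium-chain acyl-CoA dehydrogenase and was at 13.22 and 13.09 in WT and 12.87 and 12.81 in KD. Its promoter is shown because nuclear receptors of heart fuel use, such as the oestrogen-related receptors, bind the half-site AAGGTCA, and its window was the only one among the oxidation genes that held it; the gene was picked for this match. The 250 bases before the start (RefSeq, GRCm38.p6, chr3:153944644-153944893, minus strand) are printed 5′ to 3′ with the match in capitals, where it reads as the opposite strand, 249 bases before the start.

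Acadm: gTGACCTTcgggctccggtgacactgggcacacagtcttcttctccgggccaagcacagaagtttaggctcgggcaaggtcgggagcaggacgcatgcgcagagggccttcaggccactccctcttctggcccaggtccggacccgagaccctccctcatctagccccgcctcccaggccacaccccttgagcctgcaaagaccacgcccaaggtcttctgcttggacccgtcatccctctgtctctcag

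The motif was searched on both strands and stood in 1 of the 25 oxidation promoters with a window in the table, and in 4.08% of 32851 mouse windows of the same length. Among the citric acid cycle genes 1 of 21 windows held it, and among those of ketone and amino acid breakdown 0 of 14. A match is a run of letters and not a measured site.

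Breakdown of ketone bodies and branched-chain amino acids, which also feeds acyl-CoA into the mitochondrial pathways, showed a median difference near that of fatty acid oxidation. All 16 genes had a mean below WT, the median being -0.30 (-0.31 and -0.29 in KD replicates 1 and 2) and -0.23 with the intensity trend removed, and 12 (75%; 15.4% of all genes) had both KD arrays below both WT arrays. Oxct1, the enzyme that lets muscle use ketone bodies, was at 12.23 and 11.80 in WT and 11.70 and 11.34 in KD (-0.49, SE 0.16). Mccc2, a subunit of the leucine pathway's carboxylase, was at 9.08 and 8.99 in WT and 8.63 and 8.47 in KD (-0.49, SE 0.13), and Hibch of the valine pathway at 9.69 and 9.41 in WT and 9.09 and 9.10 in KD (-0.46, SE 0.14). Mmut, which passes propionyl carbons on to succinyl-CoA, was at 10.78 and 10.54 in WT and 10.22 and 10.10 in KD (-0.50, SE 0.15). The KD arrays lay below the WT arrays at each of these steps. Aldh6a1 and Dbt, of the valine pathway and of the branched-chain dehydrogenase complex, had differences of -0.38 and -0.34. All these genes were named for a small p within the list, which favours genes that keep the genotypes apart. Of the 16 genes, 10 belonged to the brightest bin, where the share of genes with both KD arrays below was 33.3%.

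Pyruvate oxidation and the citric acid cycle, where these fuels meet, were lower in all 22 measured genes, with a median of -0.26 (-0.21 and -0.24) and -0.15 with the trend removed. Both KD arrays were below both WT arrays for 16 (72.7%; 15.4% of all genes and 33.3% of the brightest bin, which held 21 of the 22), and for 10 with the trend removed. An unadjusted p under 0.05 in that direction was found for 13, where 2.49% of all genes had it. The pyruvate dehydrogenase complex was represented by Pdhb, at 12.88 and 12.76 in WT and 12.31 and 12.55 in KD (-0.39, SE 0.13). Pdha1, its alpha subunit, was at 13.21 and 13.10 in WT and 12.96 and 12.71 in KD (-0.32, SE 0.12), and Dld, the subunit it shares with other dehydrogenases, at 11.74 and 11.58 in WT and 11.36 and 11.21 in KD (-0.38, SE 0.15). Within the cycle the differences were -0.31 for Idh3a, an isocitrate dehydrogenase subunit, and -0.28 for Fh1, the fumarase. Outside the cycle, Mdh1, the cytosolic malate dehydrogenase of the shuttle into mitochondria, differed by -0.29. The genotypes did not overlap for any of these 6 genes. They were the 6 of smallest p within the list, a choice that favours genes that keep the genotypes apart.

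**Figure D4:**
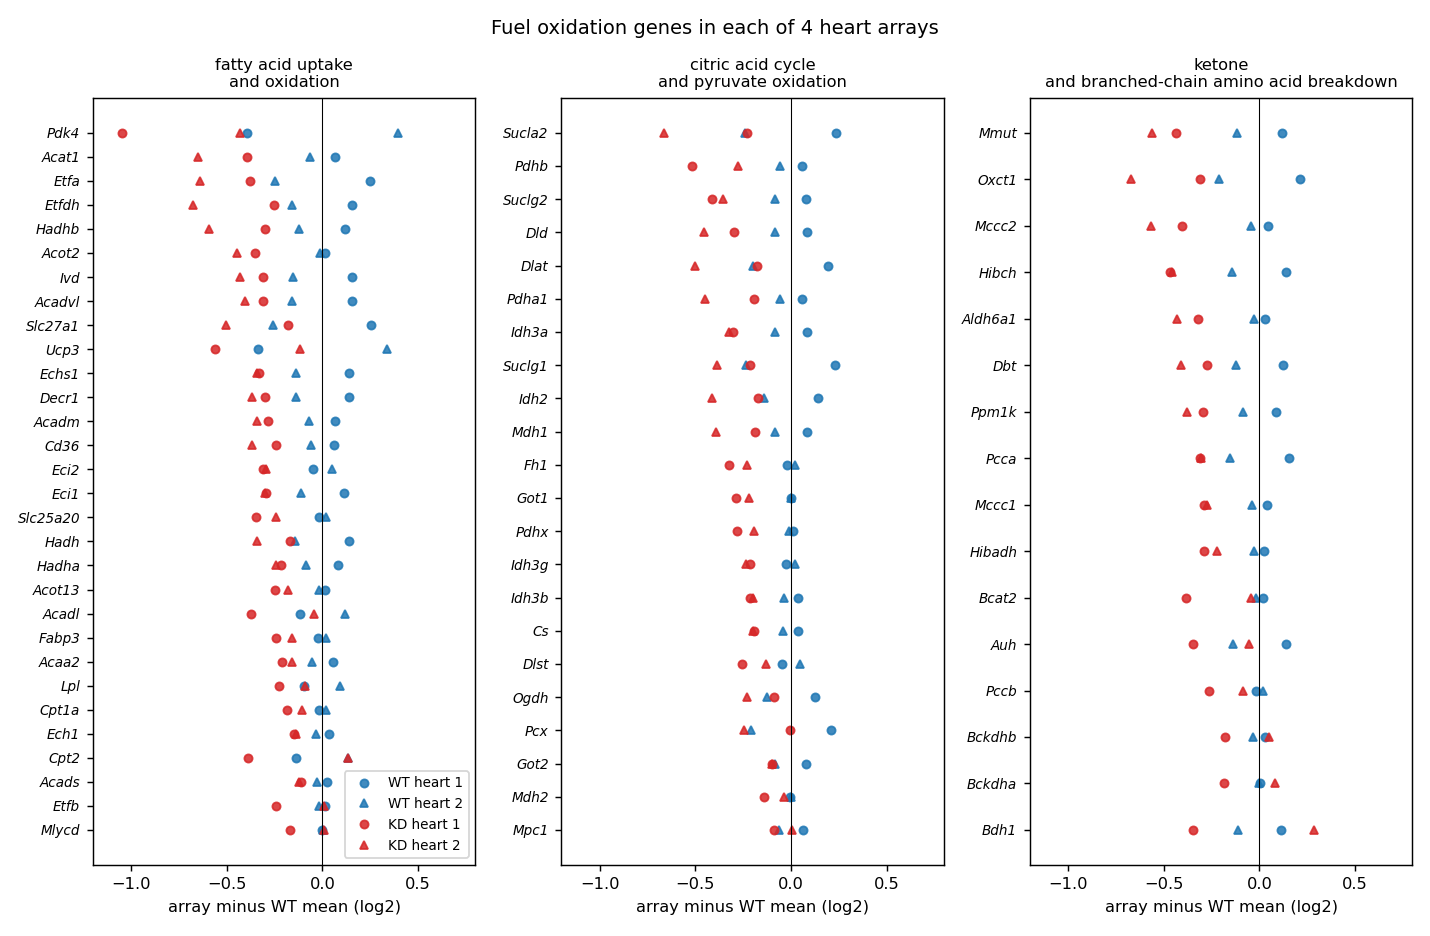
Value of each heart array minus the WT mean (log2, horizontal axis) for every measured gene (rows, ordered by mean difference) of fatty acid oxidation, the citric acid cycle with pyruvate oxidation, and ketone and branched-chain amino acid breakdown (blue, WT; red, KD; circles, replicate 1; triangles, replicate 2). Red points lie left of both blue points for 23 of 30, 16 of 22 and 12 of 16 genes; the mean of the red points is left of 0 in every row.

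The respiratory chain was lower in mean but more dependent on the processing. For complexes II to V, 34 of 37 genes were lower (91.9%, beside 47.4% of all genes and 73.2% of the brightest bin, which held 36 of the 37). The median was -0.18 (-0.19 and -0.16). Both KD arrays were below both WT arrays for 24 (64.9%, beside 15.4% of all genes and 33.3% of the brightest bin). With the intensity trend removed the median was -0.04, 22 were lower and 8 had both KD arrays below. For complex I, 28 of 35 were lower (80%), and the brightest bin held 29 of the 35. The median of -0.13 was -0.21 in KD replicate 1, -0.02 in KD replicate 2 and -0.02 without the trend. Single subunits stood out from these medians. Uqcrfs1, the Rieske iron-sulfur protein of complex III, was at 10.88 and 10.67 in WT and 10.33 and 10.29 in KD (-0.46, SE 0.12; -0.37 without the trend). Sdhd, the membrane anchor of succinate dehydrogenase, was at 11.15 and 10.996 in WT and 10.77 and 10.55 in KD (-0.41, SE 0.13), and Ndufc2 of complex I at 11.16 and 10.90 in WT and 10.60 and 10.55 in KD (-0.45, SE 0.14). The KD arrays of these 3 genes, named for a small p within their lists, lay below the WT arrays. Ndufs1 and Ndufs3, which carry or flank the iron-sulfur centres of complex I, had differences of -0.44 and -0.27. Cox6c of cytochrome oxidase, Cycs (cytochrome c), Atp5pb of the ATP synthase stalk and Uqcrc2, a core protein of complex III, had differences of -0.38, -0.30, -0.28 and -0.25, all with KD arrays below WT arrays.

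Genes that build and supply mitochondria had medians nearer those of the respiratory complexes. Of 29 genes of protein import, carriers and dynamics, 27 lay lower and the median was -0.19 (-0.18 and -0.20; -0.09 without the trend, and -0.10 without WT replicate 1 against -0.28 without WT replicate 2). Slc25a11, the oxoglutarate carrier, was at 12.52 and 12.24 in WT and 12.10 and 12.03 in KD (-0.32, SE 0.11), Vdac3, an outer membrane channel, at 11.54 and 11.22 in WT and 11.04 and 10.96 in KD (-0.38, SE 0.13), and Timm44 of the import motor at 9.13 and 8.95 in WT and 8.69 and 8.71 in KD (-0.34, SE 0.13). Slc25a4, the ADP/ATP exchanger of heart, had a difference of -0.25. All 4 had the KD arrays below the WT arrays. Of 58 mitochondrial ribosomal proteins, 48 were lower (47.4% of all genes were) and 24 had both KD arrays below both WT arrays (41.4%; 15.4% of all genes). The median of -0.11 was -0.16 in KD replicate 1, -0.03 in KD replicate 2 and -0.09 with the trend removed. Mrps33, Mrpl3 and Mrps23 had differences of -0.46, -0.33 and -0.32. The 52 cytosolic ribosomal proteins did not share this direction: 27 were lower and 25 higher, the median was -0.01, and it was 0.10 with the trend removed, so its sign turned with the scaling.

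Of 23 glycolysis and glycogen genes, 19 lay lower in KD (82.6%, beside 73.2% of the brightest bin, which held 20 of the 23). The median was -0.19 (-0.18 and -0.19; -0.07 without the trend, and -0.09 without WT replicate 1 against -0.29 without WT replicate 2). Ugp2, which makes the UDP-glucose of glycogen, was at 10.33 and 9.99 in WT and 9.68 and 9.60 in KD (-0.52, SE 0.20). Pfkfb2, the heart enzyme that sets the activator of phosphofructokinase, was at 10.33 and 10.51 in WT and 9.91 and 10.05 in KD (-0.44, SE 0.15), Phka1, a phosphorylase kinase subunit, at 8.53 and 8.37 in WT and 8.13 and 8.07 in KD (-0.35, SE 0.13), and Gbe1, the glycogen branching enzyme, differed by -0.24. The KD arrays of Ugp2, Pfkfb2 and Phka1, named for a small p within the list, lay below the WT arrays. The transcription factors and coactivators that control fuel use had a smaller median. Of 16 metabolic regulators 11 were lower with a median of -0.11, -0.21 in KD replicate 1 and -0.09 in KD replicate 2, and 5 had both KD arrays below both WT arrays (31.2%; 15.4% of all genes). Without WT replicate 2 the median was -0.02. Ppara, the nuclear receptor for fatty acids, was at 9.11 and 8.90 in WT and 8.75 and 8.73 in KD (-0.27, SE 0.12). Ppargc1a, the coactivator PGC-1 alpha, was at 9.93 and 10.74 in WT and 9.91 and 10.04 in KD (-0.36, SE 0.24), a mean difference that rests on WT replicate 2 and was 0.05 without it. Sirt3, the mitochondrial deacetylase, and Tfam, the mitochondrial DNA transcription factor, had differences of -0.23 and -0.26; the former was -0.10 without KD replicate 1 and the latter -0.11 without WT replicate 1.

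Genes of excitation and contraction mostly had a KD mean below WT, by smaller amounts. So did 73.2% of the genes of the brightest bin and 47.4% of all genes. In calcium handling, 19 of 24 genes lay lower in KD (79.2%), and the brightest bin held 14 of the 24. The median was -0.16 (-0.18 and -0.15; -0.09 without the trend, -0.11 without WT replicate 1). Cacna2d1, the alpha-2-delta subunit of the L-type calcium channel, was at 10.60 and 9.97 in WT and 9.82 and 9.46 in KD, 1.56-fold lower (-0.64, SE 0.18; limma adjusted p = 0.94). Casq2, calsequestrin, which buffers calcium inside the sarcoplasmic reticulum, was at 12.46 and 12.28 in WT and 12.11 and 11.99 in KD (-0.32, SE 0.13). S100a1, which raises calcium cycling, Asph, whose locus also encodes the junctional protein junctin, and Camk2d, the calcium-dependent kinase of heart, had differences of -0.32, -0.30 and -0.36; Camk2d alone of these 5 genes overlapped between the genotypes, and its difference was -0.06 without WT replicate 1.

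Mylk4, a kinase of the myosin light chain kinase family, was the lowest of the genes named for a like difference in both KD arrays, after the airway genes, at 10.69 and 10.25 in WT and 9.78 and 9.72 in KD. It was 1.64-fold lower (-0.72, SE 0.15; 95% interval -1.04 to -0.40), and its limma adjusted p of 0.713 was the smallest of any gene and shared by 9 genes. Among 30 sarcomere and Z-disc genes 25 were lower (83.3%, beside 73.2% of the brightest bin, which held 27 of the 30). Their median of -0.13 was -0.21 in KD replicate 1, -0.04 in KD replicate 2 and -0.02 with the trend removed. Ankrd23, a titin-binding ankyrin repeat protein, was at 11.54 and 11.72 in WT and 11.22 and 11.28 in KD (-0.38, SE 0.15). Mybpc3, the cardiac myosin-binding protein C, and Tpm1, the tropomyosin of heart, had differences of -0.26 and -0.23. Tnnt2, Ttn and Ryr2, defining genes of heart muscle, had differences of -0.19, -0.24 and -0.27, and the median of the 8 heart muscle markers turned from -0.10 to 0.04 when the trend was removed.

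Channel and G protein signalling genes were also lower in the median, in KD replicate 1 more than in KD replicate 2. Of 23 channel and connexin genes 20 lay lower in KD (87%, beside 47.4% of all genes and 73.2% of the brightest bin, which held 4 of the 23). Their median was -0.11 (-0.19 and -0.01, -0.11 without the trend, -0.06 without WT replicate 1). Gja1, connexin 43 of the ventricles, was at 12.06 and 11.79 in WT and 11.69 and 11.49 in KD (-0.33, SE 0.14), and Gja5, connexin 40 of atria and conduction fibres, at 8.71 and 8.74 in WT and 8.41 and 8.51 in KD (-0.27, SE 0.13). Of 22 adrenergic and G protein genes 16 were lower (72.7%, beside the same shares, with 3 of the 22 in the brightest bin). Their median was -0.11 (-0.19 and -0.02, -0.05 without the trend, -0.25 without WT replicate 2). For 8 of these 22 genes even the higher KD value was under the lower WT value (36.4%, beside 15.4% of all genes). The 8 included Rgs6, Rgs4 and Rgs5, regulators of G protein signalling, which end the signal of receptors such as the muscarinic one. Rgs6 was at 8.37 and 8.36 in WT and 8.002 and 8.10 in KD (-0.32, SE 0.12). Rgs4 was at 8.34 and 8.37 in WT and 8.06 and 7.91 in KD (-0.37, SE 0.14). The pericyte gene Rgs5 had a difference of -0.39. These 3 genes were named for a small p within the list, which favours genes that keep the genotypes apart. On the adrenergic side Adcy6, a cyclic AMP-forming enzyme of heart muscle, was at 9.62 and 9.43 in WT and 9.34 and 8.86 in KD (-0.42, SE 0.18), and Grk5, a kinase that desensitises beta receptors, differed by -0.32, and by -0.10 without WT replicate 1.

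Among fetal and hypertrophy genes 17 of 22 were lower (77.3%, beside 47.4% of all genes and 73.2% of the brightest bin, which held 11 of the 22). Their median was -0.10, and 0.02 without KD replicate 1. Nppb, which encodes B-type natriuretic peptide, was at 10.65 and 10.07 in WT and 10.04 and 9.08 in KD (-0.80, SE 0.37), with KD replicate 1 close to WT replicate 2 and KD replicate 2 lowest, as for the atrial genes. Nfatc3, a calcineurin-regulated factor, was higher in KD replicate 1, at 8.48 and 8.56 in WT and 9.74 and 8.73 in KD; its difference of 0.71 was 0.21 without KD replicate 1, the array with thymus transcripts.

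Marker genes of fibroblasts and blood endothelium had medians below 0 in both KD arrays; those of pericytes and lymphatic endothelium did not (0.03 and 0.24 in KD replicate 2). All 10 fibroblast markers had a mean difference below 0, beside 47.4% of all genes and 73.2% of the brightest bin, which held 7 of the 10. Their median was -0.22 (-0.22 and -0.21, and -0.17 without the trend). Both KD arrays were below both WT arrays for 8 (80%, beside 15.4% of all genes and 33.3% of the brightest bin), or for 5 with the trend removed. Col3a1, a fibrillar collagen, was at 10.46 and 10.17 in WT and 10.03 and 9.49 in KD (-0.56, SE 0.17), Col1a1 at 10.29 and 10.31 in WT and 9.98 and 10.01 in KD (-0.31, SE 0.13), and Eln, elastin, at 9.27 and 8.97 in WT and 8.64 and 8.69 in KD (-0.45, SE 0.14). The genotypes did not overlap for these 3 genes, which were named for a small p within a list. Of 37 extracellular matrix genes 31 were lower (83.8%, beside 47.4% of all genes and 73.2% of the brightest bin, which held 14 of the 37). Their median was -0.14 (-0.16 and -0.08, and -0.10 without the trend). Postn, made by activated fibroblasts, differed by -0.35. Tnc, tenascin C, was 1 of the 6 that were higher, with WT arrays at 6.77 and 6.67 and KD arrays at 7.88 and 6.82 (difference 0.10 without KD replicate 1).

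All 11 endothelial markers were lower in mean, beside 47.4% of all genes and 73.2% of the brightest bin, which held 9 of the 11. Their median was -0.20 (-0.16 and -0.25, -0.11 without the trend, and -0.08 without WT replicate 1). Both KD arrays were below both WT arrays for 7 (63.6%, beside 15.4% of all genes and 33.3% of the brightest bin), and for 2 with the trend removed. Egfl7, a secreted endothelial factor, was at 10.01 and 9.90 in WT and 9.70 and 9.39 in KD (-0.41, SE 0.18), while Pecam1 and Tek, which define the cell type, had differences of -0.20 and -0.21. Vegfa, the growth factor that heart muscle makes for these cells, was at 10.65 and 10.50 in WT and 10.14 and 9.82 in KD, 1.51-fold lower (-0.60, SE 0.14; 95% interval -0.89 to -0.30; limma adjusted p = 0.871); the gap between the genotypes was wider than that between arrays of either. Of the endocardial genes, Npr3, a clearance receptor of natriuretic peptides, was at 10.14 and 10.01 in WT and 9.80 and 9.49 in KD. Tmem100, a target of BMP signalling, was at 10.82 and 11.50 in WT and 10.15 and 10.30 in KD. Fabp4, a fatty acid binding protein of capillaries and fat cells, was at 11.86 and 11.79 in WT and 11.47 and 11.21 in KD (-0.49, SE 0.20). Macrophage markers did not share the direction: 6 of 13 were lower and 7 higher, with a median of 0.00 that was -0.03 when arrays were centred on their medians.

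**Figure D5:**
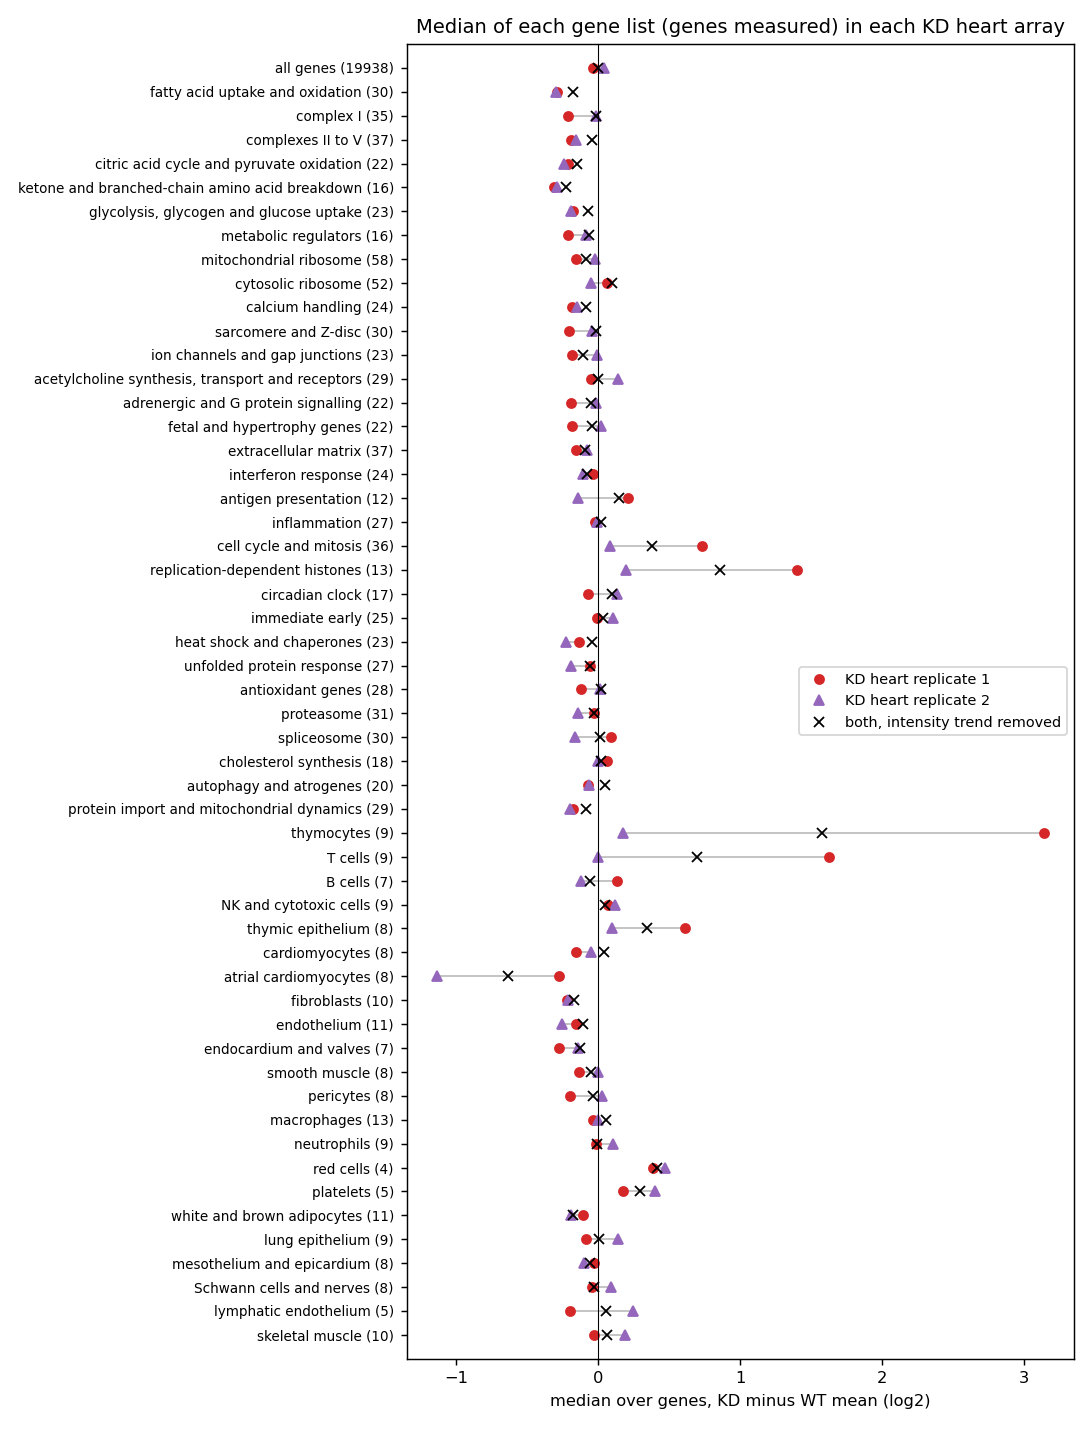
Median difference from the WT mean (log2, horizontal axis) of each of 53 gene lists and of all genes (rows, number measured in brackets) in KD replicate 1 (red circles), KD replicate 2 (purple triangles) and, as crosses, over both with the intensity trend removed. Both symbols lie near -0.3 for fatty acid oxidation and ketone and branched-chain amino acid breakdown, while thymocytes, histones and the cell cycle are far apart to the right and atrial genes far apart to the left.

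Genes higher in both KD arrays included several of red blood cells and their precursors. Alas2, which makes haem in the red cell line, was at 11.26 and 11.97 in WT and 12.24 and 12.51 in KD (0.76, SE 0.21; limma adjusted p = 0.94). Slc4a1, the band 3 anion exchanger of the red cell membrane, was at 8.35 and 8.67 in WT and 9.09 and 9.03 in KD (0.55, SE 0.13; limma adjusted p = 0.871). WT replicate 1 was the lowest array for both genes, and both KD arrays lay above both WT arrays. Of the 4 measured red cell markers 3 did so, where 14.2% of all genes did, and the median was 0.38 in KD replicate 1 and 0.47 in KD replicate 2 (0.37 for the KD mean without WT replicate 1). The others were Epb42, a protein of the red cell skeleton, with WT arrays at 6.73 and 6.65 and KD arrays at 6.87 and 7.10, and Ermap, a red cell adhesion protein, whose genotypes overlapped (difference 0.02); the remaining 5 entries of the list, the globins among them, were not analysed here.

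Others of this kind came from the ranking of 181 genes, 0.908% of all, that were higher in KD at an unadjusted p under 0.05. The ranking took only genes with both KD arrays above both WT arrays, and to a like extent. Bpgm, which makes the red cell's 2,3-bisphosphoglycerate, was at 9.61 and 10.08 in WT and 10.50 and 10.86 in KD, 1.78-fold higher (0.83, SE 0.17; limma adjusted p = 0.713). Slc25a37, mitoferrin, which carries iron into mitochondria for haem, was at 7.85 and 8.18 in WT and 8.74 and 8.65 in KD (0.68, SE 0.17). Car2, a carbonic anhydrase abundant in red cells, was at 6.68 and 7.44 in WT and 7.74 and 7.79 in KD (0.71, SE 0.20). Without WT replicate 1, the lowest array for all 3, the differences were 0.60, 0.52 and 0.33. For all 3 genes WT replicate 2 was the array next to the KD arrays. Bnip3l, which clears mitochondria from maturing red cells and was on the autophagy list, was at 11.78 and 12.14 in WT and 12.30 and 12.41 in KD (0.40, SE 0.14). Taken by the same ranking were Tent5c, a poly(A) polymerase, Ube2l6, the conjugating enzyme of ISG15, Mkrn1, a ubiquitin ligase, and Isg20, an interferon-induced exonuclease. Their differences were 0.79, 0.66, 0.56 and 0.99. Without WT replicate 1 these differences were 0.60, 0.29, 0.33 and 0.57.

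The Alas2 promoter is shown because GATA1, the master factor of the red cell line, binds the motif AGATAA. The 250 bases before the start (RefSeq, GRCm38.p6, chrX:150547167-150547416, plus strand) are printed 5′ to 3′, with the match in capitals as it reads on the opposite strand, 86 bases before the start.

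Alas2: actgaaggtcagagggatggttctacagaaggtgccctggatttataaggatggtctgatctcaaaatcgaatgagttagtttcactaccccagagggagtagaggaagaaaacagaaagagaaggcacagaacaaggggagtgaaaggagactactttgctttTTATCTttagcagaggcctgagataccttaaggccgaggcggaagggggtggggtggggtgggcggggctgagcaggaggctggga

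The motif, searched on both strands, stood in 2 of the 3 red cell promoters with a window (Alas2 and Epb42) and in 9.99% of 32851 mouse windows of the same length; 3 promoters are too few to set against that share.

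The summed level of the platelet markers was lowest in WT replicate 1, and their median difference rested on that array. Ppbp, a platelet chemokine, was at 9.21 and 10.67 in WT and 10.77 and 11.33 in KD (1.11, SE 0.60), and Clec1b, the platelet podoplanin receptor, at 6.30 and 7.26 in WT and 7.52 and 8.37 in KD (1.17, SE 0.28; limma adjusted p = 0.871). The median of the 5 platelet markers was 0.29, and -0.02 without WT replicate 1. Ppbp and Clec1b still differed by 0.38 and 0.69 without that array. The summed level of the red cell markers came to 11.59 and 12.20 in the WT arrays against 12.48 and 12.71 in the KD arrays. For the platelet markers it came to 10.56 and 11.52 against 11.54 and 11.94. How much blood remained in each sample was not tested.

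The gene with the largest concordant excess was Hal, histidine ammonia-lyase, at 6.46 and 7.60 in WT and 8.53 and 7.99 in KD, 2.35-fold higher (1.23, SE 0.30; 95% interval 0.58 to 1.88; limma adjusted p = 0.884). Its WT arrays differed from each other by about as much as the KD mean did from the WT mean, and without WT replicate 1 the difference was 0.66. Mns1, a cilium and sperm tail protein, was at 6.68 and 6.48 in WT and 7.47 and 7.12 in KD (0.72, SE 0.14). Among the lower genes outside the groups above, Adhfe1, a mitochondrial hydroxyacid-oxoacid transhydrogenase, was at 10.43 and 10.50 in WT and 9.65 and 9.97 in KD (-0.65, SE 0.16), and Art3, of the ADP-ribosyltransferase family, at 9.20 and 9.20 in WT and 8.57 and 8.65 in KD (-0.59, SE 0.13). Scd4, a heart stearoyl-CoA desaturase with close relatives in its cluster, was at 7.45 and 7.67 in WT and 6.90 and 6.98 in KD (-0.61, SE 0.25).

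Proliferation genes were higher in the KD mean almost wholly through KD replicate 1. All 36 cell cycle genes had a mean difference above 0, where 52.5% of all genes did, and 17 had both KD arrays above both WT arrays (47.2%; 14.2% of all genes); the median was 0.73 in KD replicate 1 and 0.08 in KD replicate 2. Mki67, the proliferation antigen, was at 7.45 and 7.12 in WT, 9.15 in KD replicate 1 and 7.73 in KD replicate 2, and Nusap1, a spindle protein, at 6.26 and 6.35 in WT and 7.61 and 6.75 in KD. Without KD replicate 1 their differences were 0.44 and 0.45, and those of Ccnb2, a mitotic cyclin, and Tpx2, a spindle assembly factor, were 0.26 and 0.17. The thymocyte markers were high in the same array, as given above; their part in the cell cycle values was not tested.

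For the replication-dependent histones, which are made in S phase, all 13 measured genes were higher in mean with a median of 1.40 in KD replicate 1 and 0.19 in KD replicate 2, and 12 had both KD arrays above both WT arrays (92.3%; 14.2% of all genes). H1f5, a linker histone, was at 8.92 and 9.13 in WT, 12.20 in KD replicate 1 and 9.26 in KD replicate 2. H4c14 was at 10.08 and 10.27 in WT and 11.38 and 10.86 in KD (0.94, SE 0.17), and H4c3 at 7.78 and 7.79 in WT and 8.91 and 8.34 in KD (0.84, SE 0.19); without KD replicate 1 these were 0.69 and 0.55. H4c4 was at 9.25 and 9.52 in WT and 11.18 and 9.86 in KD. Histone genes of a class are nearly identical, so that probe sets may share signal and values of single members are uncertain. For all 4 genes KD replicate 1 was highest and KD replicate 2 next. Cenph, a centromere protein, was at 5.20 and 5.27 in WT and 5.99 and 5.63 in KD (0.58, SE 0.13), higher in both KD arrays.

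Stress and immune response genes had medians nearer to 0. Of 23 heat shock genes 17 were lower (73.9%, beside 73.2% of the brightest bin, which held 16 of the 23). Their median was -0.12 (-0.13 and -0.23; -0.05 without the trend, -0.06 without WT replicate 1). Among them the mitochondrial chaperone Hspd1 was at 11.05 and 10.76 in WT and 10.64 and 10.39 in KD (-0.39, SE 0.15). Trap1, another chaperone of the organelle, differed by -0.36 and the cytosolic Dnajb4 by -0.37. Of 28 antioxidant genes 19 were lower and 9 higher, with a median of -0.03, whose sign turned to 0.02 with the trend removed. The largest difference of the list was upward, at 0.55. Among the lower genes, Sod2, the mitochondrial superoxide dismutase, and the peroxiredoxins Prdx3 and Prdx1 had differences of -0.26, -0.24 and -0.34. Among genes of muscle wasting, Trim63, a muscle ubiquitin ligase, was at 9.64 and 9.77 in WT and 9.22 and 9.42 in KD (-0.38, SE 0.13), and Lamp2, a lysosomal membrane protein, differed by -0.31. The medians were -0.06 for 24 interferon response genes (-0.04 and -0.11 in KD replicates 1 and 2, -0.004 without WT replicate 1), 0.02 for 27 inflammation genes, -0.12 for 27 genes of the unfolded protein response (-0.06 and -0.20; -0.06 without the trend) and 0.07 for 25 immediate early genes; those of inflammation and immediate early genes turned in sign without KD replicate 2 (-0.02 and -0.01). Single members reached further: Rsad2, an antiviral interferon target, was at 8.84 and 9.23 in WT and 9.51 and 9.76 in KD (0.60, SE 0.29), while Stat2, the interferon signal transducer, was at 8.66 and 8.53 in WT and 8.39 and 8.11 in KD (-0.35, SE 0.20). Egr1, an immediate early factor, was at 7.91 and 7.69 in WT and 8.19 and 8.15 in KD (0.37, SE 0.14), Gzma, a granzyme of cytotoxic cells, at 5.58 and 5.52 in WT and 6.21 and 5.85 in KD (0.48, SE 0.13), and the cytokine Il18 at 5.70 and 5.82 in WT and 5.42 and 5.45 in KD (-0.33, SE 0.11).

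Of the remaining lists, 12 antigen presentation genes had a median of 0.21 in KD replicate 1 and -0.14 in KD replicate 2. Medians over both KD arrays were -0.09 for 31 proteasome, -0.04 for 30 spliceosome, 0.01 for 18 cholesterol synthesis, 0.03 for 20 autophagy and atrophy and 0.02 for 17 circadian clock genes, of which those of the spliceosome, cholesterol synthesis, autophagy and clock turned in sign under some scalings or without some arrays. Among cell types, the markers of white and brown fat cells (-0.20, 9 of 11 lower, and -0.10 without WT replicate 1) and of endocardium and valves (-0.18, 5 of 7 lower) lay lowest after the atrial, fibroblast and endothelial ones. Smooth muscle, pericyte, mesothelial, neutrophil, lung epithelial, nerve, B cell, cytotoxic cell, lymphatic and skeletal muscle markers had medians between -0.09 and 0.08.

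Isolated cardiomyocytes had medians near 0 for the fuel genes that were lower in whole hearts. For fatty acid oxidation the median KD minus WT difference was -0.30 in hearts (2 against 2 arrays) and -0.03 in cardiomyocytes (3 against 3), for the citric acid cycle -0.26 and 0.03, for ketone and branched-chain amino acid breakdown -0.30 and 0.06, and for complexes II to V -0.18 and 0.07. Of the 30 fatty acid oxidation genes, 30 were lower in KD hearts and 19 in KD cardiomyocytes. In limma, 0 genes passed an adjusted p of 0.05 for the difference between the KD effects of the tissues (smallest adjusted p 0.999), and 696 had an unadjusted p under 0.05 (3.49%); 237 passed without KD heart replicate 2 and 2 without WT heart replicate 1. The contrast between these medians is a description. The labels name different labelling manuals for hearts and cardiomyocytes, and array medians were 7.54 to 7.59 in hearts and 6.19 to 6.27 in cardiomyocytes.

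Among the genes with the smallest p for that difference, which were named for that p, some lay on opposite sides of WT in the tissues. Over all genes, 204 (1.02%) had KD arrays beyond the WT arrays one way in hearts and the other way in cardiomyocytes. Cd59a, an inhibitor of the complement membrane attack complex with a close paralog in the mouse, was at 9.93 and 10.65 in WT and 9.70 and 9.58 in KD hearts (-0.65, SE 0.30), and had a difference of 1.04 (SE 0.25) in cardiomyocytes. Ccn2, connective tissue growth factor, was at 11.04 and 10.92 in WT and 10.58 and 10.67 in KD hearts (-0.35, SE 0.15) and differed by 0.50 (SE 0.12) in cardiomyocytes. Plscr2, a phospholipid scramblase, was at 8.10 and 8.34 in WT and 7.63 and 7.63 in KD in hearts (-0.59, SE 0.14), against 0.20 (SE 0.11) in cardiomyocytes. The heart arrays of the genotypes did not overlap for any of the 3 genes. Each of these differences between tissues had a limma adjusted p of 0.999.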

How the data were processed

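The authors deposited log2 intensities for 35556 probe sets of 10 Affymetrix arrays. RMA and Partek are named in the submitters' processing notes, without versions. RMA compresses differences of dim probes. The platform annotation paired 21789 probe sets with 1 gene symbol and 1621 with several, and did not list 12146. Each gene was read from 1 probe set, that of highest mean over 10 arrays (999 genes had a choice), which left 19938 genes with no filter on dim ones. The precision is limited by the number of arrays. Samples were grouped by their genotype and tissue.

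A linear model of 4 group means was fitted to the 10 arrays (limma 3.58.1, R 4.3.3; lmFit and trended eBayes, with 6 residual and 6.81 prior degrees of freedom). The two-sided p-values of all genes were adjusted together by Benjamini and Hochberg, with a threshold of 0.05. The code was tested on simulated data. Members, tests and the 53 gene lists (1020 of 1135 entries measured) were chosen with earlier results of these data known. The intensity trend was a loess curve (span 0.3) of the KD minus WT difference on mean heart intensity. Named genes were Slc18a3 and Chat, and others taken by rank. Up to 15 per direction were taken by size among non-overlapping genes at an unadjusted p under 0.05. In these the smaller KD array difference was at least 0.5 of the larger. Up to 10 were taken per array and direction, and up to 6 of each list and 10 of the difference between tissues by smallest p. Gene models, small RNAs, receptor segments, olfactory, vomeronasal and Y-linked genes and Xist were not named outside the lists. The text names a subset, and Acadm and Tbx5 besides. Summed levels are log2 of summed linear intensities. Promoter windows came from RefSeq (GRCm38.p6). Alternatives were other normalizations and scalings, a filter on dim genes, other probe set rules, other limma settings, the replicate number as a block, trend removal and leaving out each array.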

Additional observations from a re-analysis of the deposited data

Results flagged for a closer look

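Among the 148 genes given with values, some of which were named for a small p of this very difference, 8 had both KD heart arrays on the other side of the WT arrays from all 3 KD cardiomyocyte arrays, with no overlap in either tissue; over all genes 204 did (1.02%). The heart difference minus the cardiomyocyte difference (log2) was -1.70 for Cd59a (SE 0.39), -0.85 for Ccn2 (SE 0.19), -0.58 for Uqcrfs1, -0.40 for Sirt3, -0.39 for S100a1 and -0.36 for Ndufs3, all lower in KD hearts and higher in KD cardiomyocytes. It was 0.65 for Ckap2l, a spindle protein, and 0.62 for Csta3, a stefin, which were higher in KD hearts and lower in KD cardiomyocytes. The unadjusted p of the difference ranged from 0.000551 for Ccn2 to 0.0336 for S100a1, and the limma adjusted p was 0.999 for each, so that none passed. The spread within each tissue rests on 2 or 3 arrays per genotype.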

How the results depend on the processing

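Among 148 genes given with values, 141 kept the sign of their heart difference under all 16 alternatives. The exceptions turned with single arrays left out, which gave -0.22 to 0.31 for Slc18a3, -0.22 to 0.28 for Chat, -1.05 to 0.59 for Fasn, -0.92 to 0.27 for Acaca, -0.87 to 0.38 for Acly, -1.47 to 0.13 for Ms4a1 and -0.77 to 0.045 for Ppargc1a. They were below 0 without WT replicate 1 or KD replicate 2 for Slc18a3 and Chat and above 0 for the lipogenic genes. Chat was also at -0.009 after quantile normalization of all arrays, -0.005 with arrays centred on their medians, -0.010 after quantile normalization of the hearts alone and -0.021 with the intensity trend removed. The difference became over 1.5 times smaller for 45 of the 148 genes without WT replicate 1, 6 without WT replicate 2, 22 without KD replicate 1 and 33 without KD replicate 2.

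Genes past the limma adjusted threshold numbered 0 to 303 with single arrays left out, and 0 to 237 for the difference between tissues; an adjusted threshold of 0.1 and the scaling, filter, probe set, array weight and eBayes alternatives gave 0. Replicate numbers are shared by the genotypes but nothing says that they pair samples: deviations of same-numbered arrays correlated at 0.23 in hearts and at 0.15, 0.13 and -0.05 in cardiomyocytes. With the replicate number as a block 1 gene passed (Clec1b, higher). The 982 genes at an unadjusted p under 0.05 became 449 without WT replicate 1, 1999 without KD replicate 1, 514 after quantile normalization of the hearts alone, 531 with hearts fitted alone and 547 without dim genes.

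The median of fatty acid oxidation was -0.19 after quantile normalization of all arrays or of hearts alone, -0.18 with the trend removed and -0.33 to -0.22 with single arrays left out. The citric acid cycle gave -0.17, -0.15 and -0.15 under those scalings and -0.31 to -0.21 with single arrays left out. Complexes II to V gave -0.088, -0.084 and -0.044, -0.21 with centred arrays and -0.19 to -0.12 with single arrays left out. Ketone and amino acid breakdown gave -0.23 with the trend removed and -0.37 to -0.22 with single arrays left out. Leaving out single arrays gave 0.19 to 1.40 for histones and -1.14 to -0.28 for atrial genes, and the red cell median was 0.55 without dim genes. With 2 arrays a group and no detection calls or depth in the files, how far dim genes are above background is unknown.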
